A study of Rattus norvegicus with 18 samples.

Results

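Pdgfra, the alpha receptor for platelet-derived growth factor, its ligand gene Pdgfa and Cspg4, the gene of the NG2 proteoglycan, were followed in 2 populations of cells sorted from newborn rat brain. They were found as every probe set whose platform annotation gives exactly 1 symbol from these 3 names. This gave 3 genes of 13810 with such a probe set, and 3 probe sets of 31256 in all: 1370941_at for Pdgfra (Entrez gene 25267), 1368685_at for Cspg4 (81651) and 1370427_at for Pdgfa (25266). All 3 lie on array A, the first of the 2 array types of the series, which holds 15923 probe sets, and none of the 15333 on array B carried these symbols. One group was A2B5+ cells and the other O4+ cells, both taken by flow cytometry from whole brains of male pups at postnatal day 7, with no treatment named. The A2B5 antibody binds gangliosides of early glial progenitors and some neurons, and the O4 antibody binds sulfatide and similar lipids of late progenitors and oligodendrocytes. The A2B5+ group has 5 replicates and the O4+ group 4, each from a litter of 10 pups, so each array averages over pooled animals. The sources used here do not name the strain, and whether an A2B5+ and an O4+ replicate came from the same litter was not settled.

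PDGF receptor alpha is a tyrosine kinase on the surface of oligodendrocyte progenitors. Dimers of the PDGF A chain bind it and drive these cells to divide, survive and migrate, and it is lost as the cells become oligodendrocytes. In the developing brain the A chain is best known as a product of neurons and astrocytes. NG2 is a transmembrane chondroitin sulfate proteoglycan found on the same progenitors and also on pericytes of blood vessels. It binds PDGF-AA and has been linked to the receptor's response. Pdgfra is also expressed by fibroblasts of the meninges.

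The upstream DNA of the 3 genes is printed here because the receptor and the proteoglycan moved one way between the populations and the ligand the other. Each line gives the 250 bases before the annotated gene start, 5′ to 3′ along the gene, from the RefSeq promoter table on build GRCr8, which held all 3 genes. Capitals mark matches, on either strand, to the GC box GGGCGG or the E-box core CAGCTG.
Pdgfra, chr14:33408517-33408766, strand minus: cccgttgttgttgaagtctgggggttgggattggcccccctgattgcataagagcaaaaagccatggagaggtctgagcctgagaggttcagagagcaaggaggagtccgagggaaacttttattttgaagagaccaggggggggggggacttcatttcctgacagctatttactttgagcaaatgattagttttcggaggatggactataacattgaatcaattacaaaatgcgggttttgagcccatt
Cspg4, chr8:66160692-66160941, strand plus: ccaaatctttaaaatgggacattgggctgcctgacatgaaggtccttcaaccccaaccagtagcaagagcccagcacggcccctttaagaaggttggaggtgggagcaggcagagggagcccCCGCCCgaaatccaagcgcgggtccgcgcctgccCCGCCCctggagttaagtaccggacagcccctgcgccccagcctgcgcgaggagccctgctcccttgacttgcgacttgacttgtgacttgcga
Pdgfa, chr12:20759116-20759365, strand plus: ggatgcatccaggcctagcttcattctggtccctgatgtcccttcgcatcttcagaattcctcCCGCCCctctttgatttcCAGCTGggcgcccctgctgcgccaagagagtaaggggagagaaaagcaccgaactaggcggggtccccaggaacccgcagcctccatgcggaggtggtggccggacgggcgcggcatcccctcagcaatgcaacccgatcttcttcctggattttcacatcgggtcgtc
The Pdgfra window had a GC content of 47.2%, against 62.0% for Cspg4, 60.8% for Pdgfa and a median of 51.2% over the 33469 windows of the table. GGGCGG was present at 2 places in the Cspg4 window and 1 in the Pdgfa window, and 30.5% of all windows held it. CAGCTG was present once in the Pdgfa window, and 12% of all windows held it. The letters ACAAT, the core bound by SOX factors, and TATAAA, the core of the TATA box, were also searched on both strands and were in none of the 3 windows, while 30.0% and 12.9% of all windows held them. The motifs searched do not overlap in these windows. The arrays measured transcripts and not binding at these sites.

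O4+ cells carried far more Pdgfa transcript than A2B5+ cells, 8.14-fold on average, and less Pdgfra (4.90-fold) and less Cspg4 (1.93-fold). The ligand separated the populations completely. For the receptor and the proteoglycan the ranges of the populations overlapped, with A2B5+ replicate 5 inside the O4+ range. All 3 differences passed the test fitted over the 13098 tested probe sets of array A (limma, Benjamini-Hochberg adjusted p under 0.05). Of all those probe sets 32.5% were called higher in O4+ cells and 14.7% lower, 47.2% in all, so a call alone does not set these genes apart. Higher calls made up 68.8% of the calls on array A, and 51.0% once each array was centred on its median. On array B, which holds no probe set of these genes, 23.7% of 11136 tested probe sets were called (9.93% higher and 13.8% lower), and in 25.6% the populations did not overlap. Values are the authors' linear ratios, in which each probe set is given relative to roughly its own median over the 9 arrays, and their log2. They can be compared between arrays for a gene, and not between genes. Each of the 3 probe sets had a median ratio of exactly 1, and so passed the requirement of a ratio of at least 1 on at least 4 of 9 arrays by how the ratios are scaled. In sorted populations, fewer cells that express a gene and less of its RNA per cell cannot be told apart.

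**Figure D1:**
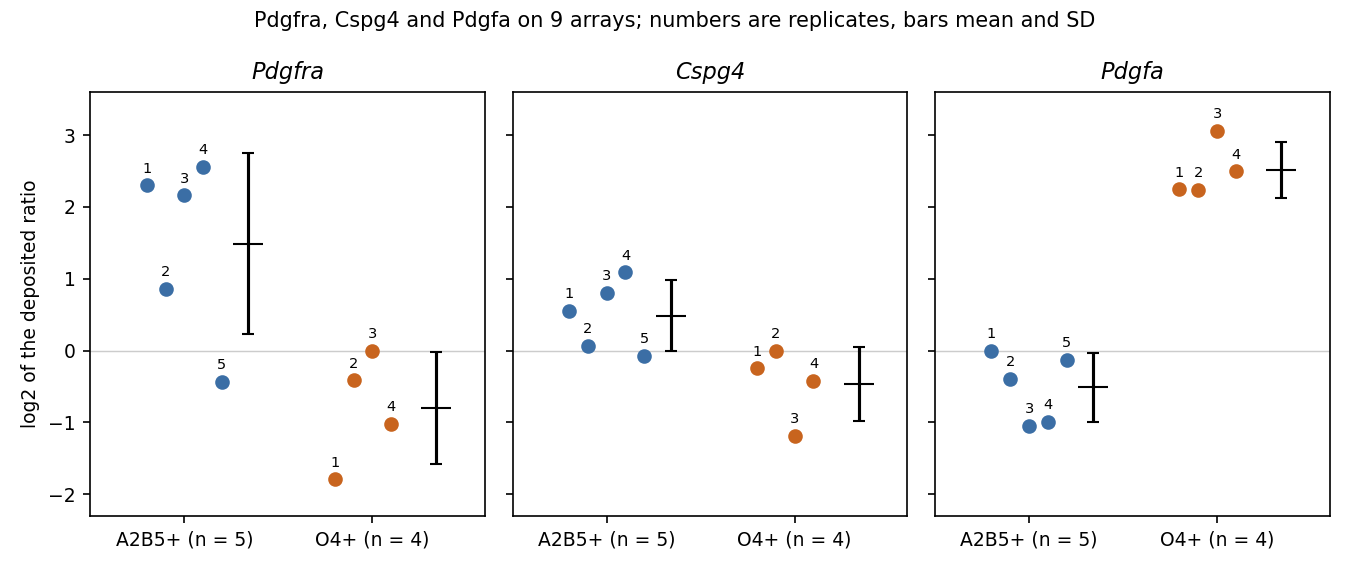
Log2 of the deposited ratio (vertical axis) of Pdgfra, Cspg4 and Pdgfa on each array, with A2B5+ arrays in blue and O4+ arrays in orange, replicate numbers above the points, and the mean ± SD as a black bar. All O4+ points of Pdgfa lie above all A2B5+ points, while A2B5+ replicate 5 lies within the O4+ range for Pdgfra and Cspg4.

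Pdgfa, the ligand, had ratios of 1.000, 0.760, 0.484, 0.502 and 0.913 in A2B5+ replicates 1 to 5. Its ratios in O4+ replicates 1 to 4 were 4.739, 4.723, 8.349 and 5.646. The lowest O4+ array was thus 4.72 times the highest A2B5+ array, and O4+ replicate 3 was the highest of all. The groups did not overlap, as was the case for 44.0% of the probe sets tested on array A in either direction, and for 33.3% with O4+ the higher. On the log2 scale the mean of the 5 A2B5+ arrays was -0.51 ± 0.48 (SD), and that of the 4 O4+ arrays was 2.51 ± 0.39. The difference was 3.02 ± 0.27 (SE of the limma fit; 95% interval 2.43 to 3.61; adjusted p = 1.8e-05). An exact permutation test over all splits of the 9 arrays into 5 and 4 gave p = 0.0079, two-sided, the smallest that these splits allow. Only 148 of the 13098 tested probe sets had a larger rise. The gap did not depend on any 1 array: with each array left out in turn it lay between 2.84 and 3.15, and the populations stayed apart each time.

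Pdgfra, the receptor, had ratios of 4.924, 1.819, 4.470, 5.879 and 0.738 in A2B5+ replicates 1 to 5. In O4+ replicates 1 to 4 they were 0.289, 0.751, 1.000 and 0.494. A2B5+ replicates 1, 3 and 4 were high, replicate 2 was intermediate, and replicate 5 lay below O4+ replicates 2 and 3. The highest A2B5+ array was 7.97 times the lowest, and the highest O4+ array 3.46 times the lowest. The log2 mean was 1.49 ± 1.26 (SD) over the 5 A2B5+ arrays and -0.81 ± 0.78 over the 4 O4+ arrays. The difference was -2.29 ± 0.60 (SE; 95% interval -3.63 to -0.96; adjusted p = 0.012, limma), and the exact permutation p was 0.040. The limma call held with each array left out in turn, whereas the exact permutation p was 0.029 without A2B5+ replicate 5 and 0.054 to 0.086 without any other array. The SD of Pdgfra among A2B5+ arrays was larger than that of 99.6% of tested probe sets, whose median SD was 0.26. Its SD among O4+ arrays was larger than that of 95%, where the median was 0.29. Without A2B5+ replicate 5 the populations did not overlap and the difference was -2.78 ± 0.45 (adjusted p = 0.0013, limma). Array weights gave A2B5+ replicate 5 a weight of 0.42 and O4+ replicate 2 a weight of 0.22. They gave the largest weight, 4.07, to O4+ replicate 1, the lowest array for Pdgfra. With these weights the difference was -3.24 ± 0.46.

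Cspg4, the NG2 proteoglycan, had ratios of 1.465, 1.046, 1.745, 2.125 and 0.949 in A2B5+ replicates 1 to 5. In O4+ replicates 1 to 4 they were 0.841, 1.000, 0.439 and 0.747. The populations overlapped through a single pair of arrays, since A2B5+ replicate 5 lay just below O4+ replicate 2. O4+ replicate 3 was the lowest array. The log2 mean was 0.49 ± 0.49 (SD) for A2B5+ (n = 5) and -0.46 ± 0.51 for O4+ (n = 4). The difference was -0.95 ± 0.29 (SE; 95% interval -1.60 to -0.30; adjusted p = 0.025, limma), and the exact permutation p was 0.032. The limma call was lost without O4+ replicate 3 (-0.71 ± 0.27, adjusted p = 0.064, limma) and without A2B5+ replicate 3 (-0.87 ± 0.32, adjusted p = 0.053, limma). The exact permutation p was under 0.05 without A2B5+ replicate 5 (0.029) or O4+ replicate 2 (0.036), and 0.054 to 0.057 without any other array.

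**Figure D2:**
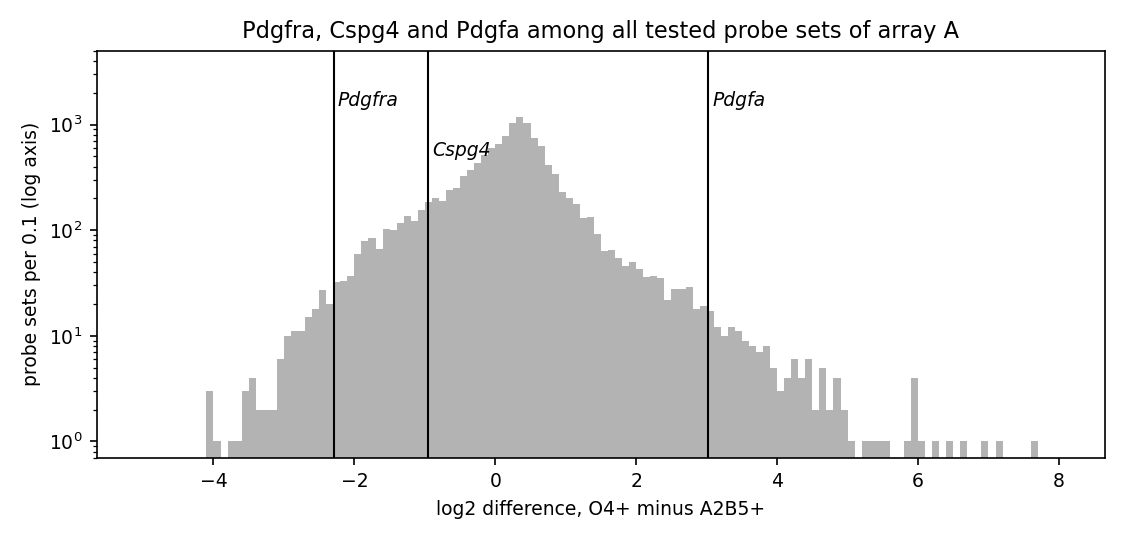
Number of tested array A probe sets (vertical log axis, bins of 0.1) by log2 difference, O4+ minus A2B5+ (horizontal axis), with black lines at the 3 genes. Pdgfa at 3.02 and Pdgfra at -2.29 lie in the sparse tails, and Cspg4 at -0.95 lies within the left shoulder.

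The arrays of the series differed in overall scale, and the median of tested array A probe sets was 0.17 higher on O4+ than on A2B5+ arrays. With each array centred on its median, the differences were 2.85 ± 0.27 for Pdgfa, -2.46 ± 0.62 for Pdgfra and -1.12 ± 0.29 for Cspg4 (adjusted p = 5.5e-05, 0.012 and 0.015, limma). Centring lowers every array A difference by the same 0.17. Differences of this size could not change direction by it, and the falls had to become larger. O4+ replicate 2 and A2B5+ replicate 5 correlated least with their own populations over all tested probe sets (mean r = 0.61 and 0.25, against 0.76 to 0.80 and 0.32 to 0.43 for the others). Without O4+ replicate 2 the differences were 3.11, -2.42 and -1.11 for Pdgfa, Pdgfra and Cspg4.

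Whether the 3 genes changed by different amounts was tested on differences within each array, for 3 pairs. On the log2 scale, Pdgfa minus Pdgfra lay between -3.55 and 0.31 on the A2B5+ arrays and between 2.65 and 4.04 on the O4+ arrays. The change of ligand against receptor was therefore 5.32, with no overlap (exact permutation p = 0.0079, two-sided; 95% interval from the same test 3.21 to 7.24). Pdgfa minus Cspg4 changed by 3.98, also with no overlap (exact permutation p = 0.0079; interval 2.62 to 5.54). Both p-values were 0.012 after Benjamini-Hochberg adjustment over the 3 pairs. The change of Pdgfra minus that of Cspg4 was -1.34, which missed the threshold (exact permutation p = 0.079, also after adjustment; interval -2.89 to 0.33). The data thus leave room for equal falls and for a much larger fall of the receptor. O4+ replicate 3, with the highest O4+ value of Pdgfra and the lowest of Cspg4, bore most on this pair: without it the difference was -1.85 (exact permutation p = 0.036).

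**Figure D3:**
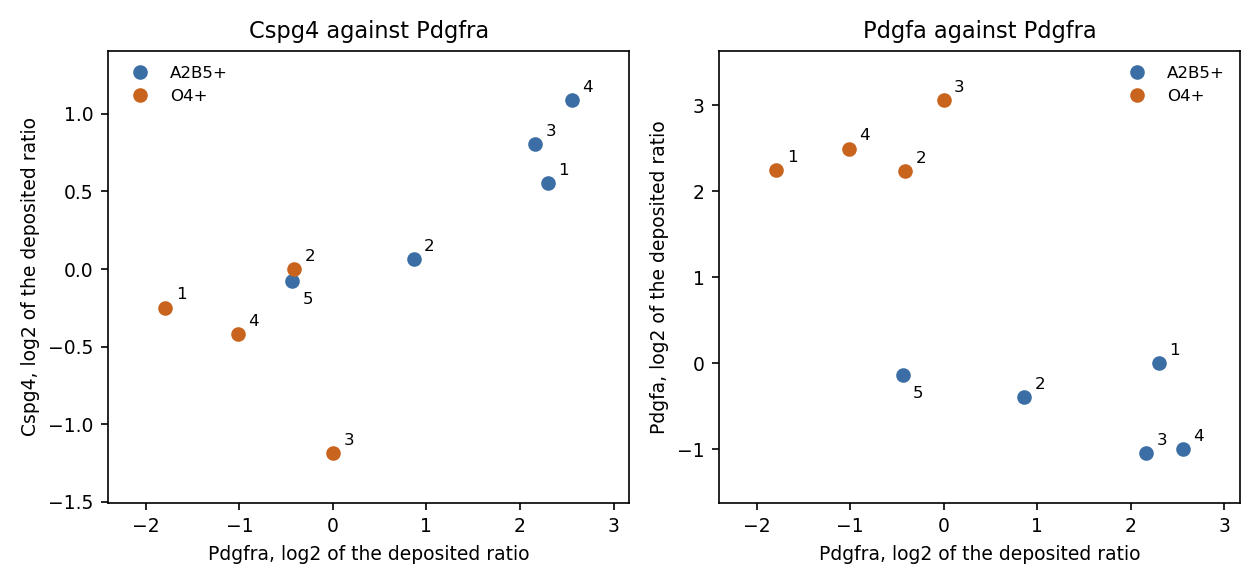
Log2 ratios of Cspg4 (left) and Pdgfa (right) against those of Pdgfra on the same array; blue points are A2B5+ arrays, orange points O4+ arrays, and numbers are replicates. A2B5+ replicates 1, 3 and 4 are high for both Pdgfra and Cspg4, replicate 5 is low for both, and O4+ arrays form a separate group at high Pdgfa.

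Among the A2B5+ arrays, Pdgfra and Cspg4 kept nearly the same order: replicate 4 was highest, replicates 1 and 3 followed, then replicate 2, and replicate 5 was lowest. Pdgfa ran largely the other way, being lowest in replicates 3 and 4, although replicate 1 was its highest. Among the O4+ arrays, replicate 3 was highest for Pdgfra and Pdgfa and lowest for Cspg4. With the population means removed, the Pearson correlation over the 9 arrays was 0.43 between Pdgfra and Cspg4, -0.20 between Pdgfa and Pdgfra and -0.82 between Pdgfa and Cspg4. The arrays of a gene pair share their RNA sample and their scale, and these values describe them, with no test.

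Of the 7 ligand and receptor genes of the family, 6 had a probe set with 1 symbol and 4 were tested. These were Pdgfa, called higher, Pdgfra and Pdgfrl, called lower, and Pdgfrb, not called. Over all 11982 genes tested with 1 row per gene, 46.5% were called, 28.8% higher and 17.8% lower. Pdgfrl, a receptor-like protein that lacks a kinase domain, fell by 1.27 ± 0.44 (adjusted p = 0.036, limma over probe sets). Its ratios were 1.315, 3.060, 0.936, 1.118 and 2.044 in A2B5+ cells and 0.679, 0.903, 0.268 and 1.000 in O4+ cells. O4+ replicate 3 was again the lowest array, and the groups overlapped. Pdgfrb, the beta receptor of pericytes and smooth muscle, was not called on any of its 3 probe sets, with -0.30 ± 0.36 on array A (adjusted p = 0.51, limma) and -0.45 ± 0.21 and -0.01 ± 0.07 on array B (adjusted p = 0.15 and 0.90). The ligands Pdgfc and Pdgfd lay below the filter. Their ratios were 0.508 to 0.635 and 0.547 to 0.740 in A2B5+ cells, and 0.685 to 0.772 and 0.794 to 0.922 in O4+ cells. Their untested differences were 0.31 and 0.39. Over all 2768 array A probe sets below the filter the median was 0.31, with quartiles of 0.27 and 0.37. Pdgfc thus lay near the median and Pdgfd just above the upper quartile.

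Genes that relay the receptor's signal moved in both directions. Of 36 in the list, 30 were tested, with 5 higher (16.7%) and 10 lower (33.3%) and a median difference of -0.17, against a median of 0.14 over all genes. After centring the counts were 3 higher and 11 lower, where 18.7% of all genes were higher and 20.4% lower. The 3 largest called rises were Fyn, a Src-family kinase of oligodendrocyte differentiation (2.51 ± 0.36, adjusted p = 0.00046, limma), Gab1, a docking protein for the phosphatase Shp2 and PI3-kinase (1.49 ± 0.13), and Ptpn11, which encodes Shp2 itself (0.73 ± 0.14). The 3 largest called falls were Shc1, an adaptor between receptor kinases and Ras (-1.42 ± 0.16, adjusted p = 0.00012, limma), Dusp6, a phosphatase that limits ERK signalling (-1.24 ± 0.32), and Spry2, a feedback inhibitor of receptor kinases (-1.09 ± 0.25). Without A2B5+ replicate 5 the counts were 6 higher and 9 lower, and without O4+ replicate 2 they were 4 and 10.

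Of 22 partners and processing enzymes of NG2, 20 were tested, with 8 higher (40%) and 3 lower (15%) and a median difference of 0.19, beside 28.8% and 17.8% over all genes. Centring left 4 of the 20 higher and 3 lower, near the shares of all genes after centring, 18.7% and 20.4%. Leaving out O4+ replicate 2 left 5 and 3. The largest called rises were Psen2, a presenilin of the gamma-secretase that cuts within membranes (1.84 ± 0.15), Prkca, the protein kinase that phosphorylates the NG2 tail (1.65 ± 0.24), and Pard3, a polarity protein (1.61 ± 0.25). The largest called falls were Plat, tissue plasminogen activator (-1.87 ± 0.27), Mmp14, a membrane-bound metalloprotease (-1.08 ± 0.33), and Sdcbp, the scaffold syntenin that binds the NG2 tail (-0.50 ± 0.12). Mpdz and Grip1, PDZ-domain scaffolds that bind NG2 and were named after their values were seen, had differences of 1.29 ± 0.32 and 0.38 ± 0.14, and the call of Grip1 was lost after centring (adjusted p = 0.19, limma).

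**Figure D4:**
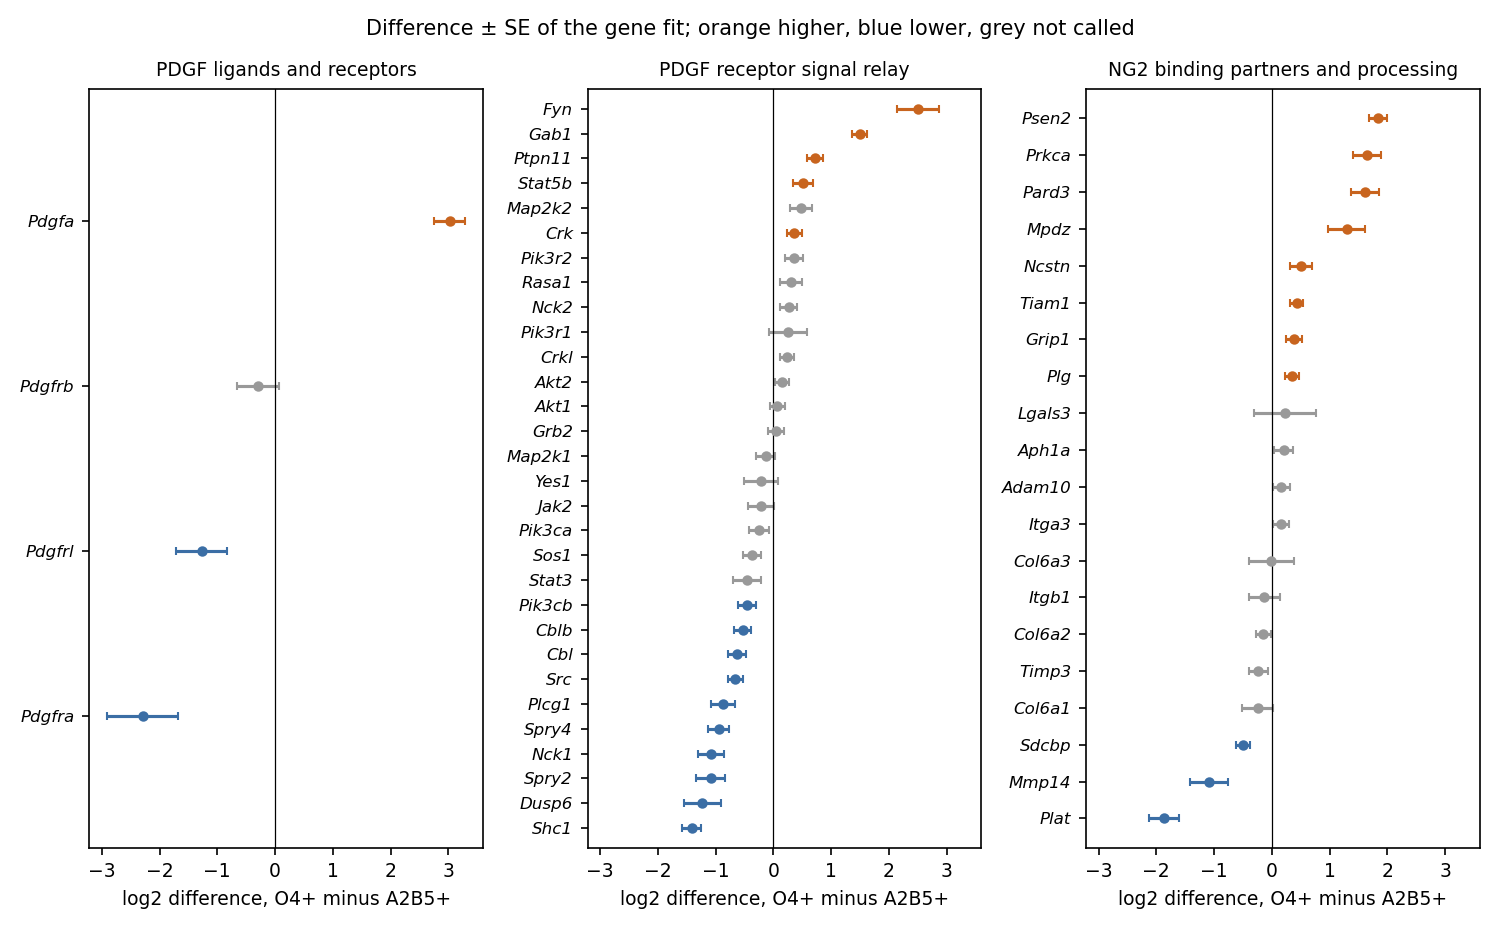
Log2 difference, O4+ minus A2B5+ (horizontal axis), ± SE of the limma fit for each tested gene of 3 lists; orange is called higher, blue called lower, grey not called. Pdgfa stands alone on the right of the family panel, while the relay panel runs from Shc1 at -1.42 to Fyn at 2.51.

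Of 14 tested genes of the progenitor list other than Pdgfra and Cspg4, 8 were higher in O4+ cells (57.1%) and 3 lower (21.4%), with a median difference of 0.90; after centring 6 were higher and 3 lower, as was the case without A2B5+ replicate 5 or without O4+ replicate 2. Sox10, which marks the lineage from progenitor to myelinating cell, rose by 4.68 ± 0.61, Tnr, the matrix protein tenascin-R, by 4.26 ± 0.75 and C1ql1, a secreted C1q-like protein, by 2.75 ± 0.62. Besides Pdgfra, the largest falls were Rlbp1 (-2.25 ± 0.45) and Cspg5, another surface proteoglycan (-1.38 ± 0.31). Over all genes 28.8% were higher and 17.8% lower, and 18.7% and 20.4% after centring. Among 12 tested regulators of the progenitor state 7 were higher (58.3%) and 2 lower (16.7%). The lower shares of both lists were thus near that of all genes. The largest rises among the regulators were Nkx6-2 (4.77 ± 0.19), Sox10 and Myrf, an activator of myelin genes (3.84 ± 0.33). Those lower were Id4 (-1.26 ± 0.25) and Hes1 (-1.21 ± 0.35), inhibitors of differentiation. The regulator list thus mixes factors that hold the progenitor state with factors of differentiation, and its count describes neither alone. Nkx2-2, a transcription factor known to repress Pdgfra, had a difference of 2.69 ± 0.71 and was named after its value was seen. Its bearing on the fall of Pdgfra was not tested. Of 15 tested genes of myelinating oligodendrocytes 15 were higher, and of 20 cell cycle genes 19 were lower.

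The marker lists are given by array as the mean log2 ratio of their array A genes after centring. The remaining 11 progenitor genes averaged 0.37, -0.76, -0.18, -0.29 and -1.37 in A2B5+ replicates 1 to 5, so that replicate 5, the lowest for Pdgfra and Cspg4, was lowest here too. The 16 neuron and neuroblast genes averaged 0.52, 0.37, 1.41, 1.06 and -0.31 on the same arrays, again lowest in replicate 5, and -0.57 to -0.32 in O4+ cells. In that list 9 of 18 tested genes were lower (50%) and 4 higher (22.2%), beside 17.8% lower and 28.8% higher over all genes. The 15 astrocyte and radial glia genes ranged from -0.01, in replicate 5, to 0.76 in A2B5+ cells and from -0.89 to -0.33 in O4+ cells, with 8 of 15 lower and the other 7 not called (9 lower after centring). Replicate 5 was also the lowest A2B5+ array for the fibroblast (-0.21), endothelial (0.20), myelinating (-0.89), regulator (-0.57), relay (-0.03) and NG2 partner (-0.15) lists, and not for the mural, microglia and cell cycle lists. Its low rank is thus not particular to the progenitor, neuron and astrocyte lists. The part of other cells in the fall of Pdgfra was not tested. Ratios record no level of 0, so no marker can be called absent.

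Genes of mural cells and fibroblasts, other known sources of Cspg4 and Pdgfra, gave few calls. Over all genes 46.5% were called, 28.8% higher and 17.8% lower. The 25% of mural genes called higher and the 15.4% of fibroblast genes called lower were near these shares. The 0% of mural genes called lower and the 7.69% of fibroblast genes called higher were below them. Of 16 mural genes 4 were higher and 12 were not called. After centring 1 was higher and 0 lower, where 18.7% of all genes were higher and 20.4% lower. The mural list mean ran from -0.39 to 0.37 in A2B5+ cells and from -0.79 to 0.28 in O4+ cells. Of 13 tested fibroblast and meningeal genes 2 were lower and 1 higher (2 and 0 after centring), with list means of -0.21 to 0.62 and -0.91 to 0.17. O4+ replicate 3, the lowest array for Cspg4, was also the lowest for both lists, at -0.79 and -0.91, while the other O4+ arrays lay between 0.08 and 0.28 for mural genes and between -0.09 and 0.17 for fibroblast genes. The same array was also the lowest for the endothelial (-2.297), microglia (-1.50) and astrocyte (-0.89) lists, so its low value is not particular to mural and fibroblast genes. Whether this bears on the Cspg4 value of that array was not tested. Endothelial and microglia markers fell on the whole, with 11 of 12 lower in each list.

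**Figure D5:**
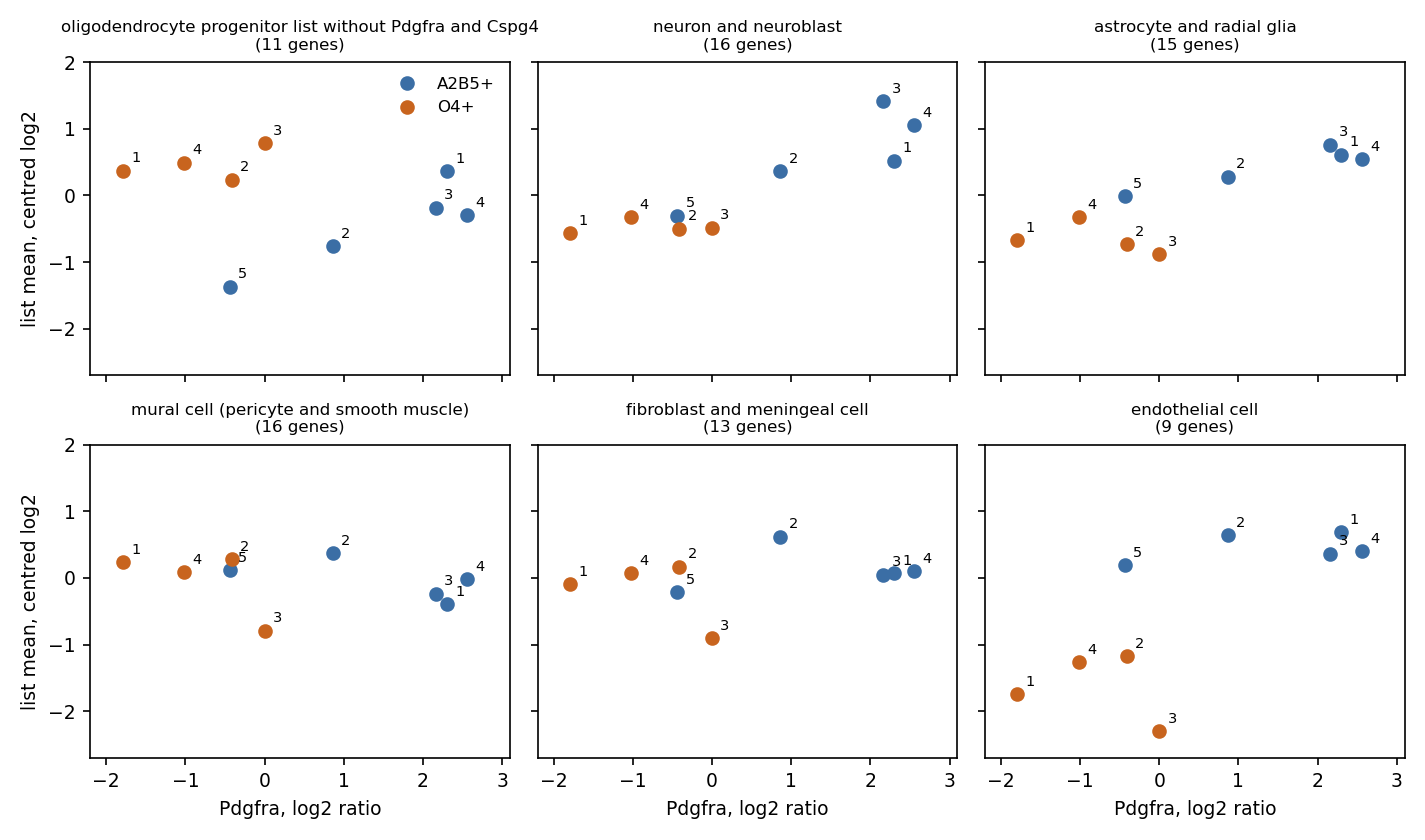
Mean centred log2 ratio of a marker list's array A genes (vertical axis) against the log2 ratio of Pdgfra (horizontal axis) on each array, in 6 panels, with A2B5+ arrays in blue, O4+ arrays in orange and replicate numbers beside the points. Among A2B5+ arrays, replicate 5 is lowest for Pdgfra and in every panel but the mural one, and among O4+ arrays replicate 3 is lowest in the astrocyte, mural, fibroblast and endothelial panels.

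The genes most like each of the 3 across the 9 arrays were taken as those with the highest Pearson correlation of log2 ratios among 10604 tested array A probe sets of other genes with 1 symbol. For Pdgfra these were Als2cl (r = 0.98), Zeb1, Hdac6, Rtn2 and Stmn3 (0.97 each), all lower in O4+ cells by limma. For Cspg4 they were Ddah2 (0.96), the integrin subunit Itgb5 (0.95), the matrix protein Sparc (0.94), Sirpa (0.94) and Prmt2 (0.94). For Pdgfa they were Rasgef1b (0.99), Scamp4 (0.99), the lysophosphatidic acid receptor Lpar1 (0.99), Pcyt1a (0.99) and Sh3glb2 (0.99). Rasgef1b rose by 3.56 and Lpar1 by 3.79, close to the rise of Pdgfa. These values describe the arrays. They rest on 9 arrays in 2 populations, share the difference between the populations, and were picked as the highest of many.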

How the data were processed

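Expression was measured in 5 A2B5+ and 4 O4+ replicates on 2 array types, 18 arrays in all. The authors deposited linear ratios per probe set. The submitters' processing notes name GCRMA, with no version; the step from its output to ratios is not described in the labels. On array A, 12995 of 15923 probe sets had a median ratio of exactly 1 and 2928 a lower one. Signal over background is not recorded, and the number of arrays limits the precision.

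The log2 of each ratio was used with no further normalization and no pseudocount. Probe sets with a ratio of at least 1 on at least 4 of 9 arrays were tested, controls left out, with limma 3.58.1 in R 4.3.3 (lmFit, eBayes, two-sided) per array type, with Benjamini-Hochberg adjustment and a threshold of 0.05. Gene lists were read from a fit with 1 row per gene, the mean of its tested probe sets, array A before array B. Exact permutation tests counted absolute differences of means over all splits of the arrays. All p-values rest on how far replicates of a population differ, with replicates taken as independent. Genes and their identifiers came from the platform annotation, and all 3 identifiers matched the reference gene table. The fits were tested on simulated data.

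The members, the lists and the rules were chosen with earlier results of these data known. Named genes are the 3 genes, the rest of the PDGF family, up to 3 called rises and 3 called falls of the relay, NG2, progenitor and regulator lists, and the 5 genes most like each member; cell type lists are given as counts. Alternatives were other filters, scalings, weights and spread estimates, a replicate block and leaving out each array.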

Additional observations from a re-analysis of the deposited data

How the results depend on the processing

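Over 8 other settings each (filters, scaling, array weights, spread, replicate block, 1 row per gene), all 3 differences kept their direction and their call by limma: Pdgfra from -3.24 to -2.29, Pdgfa from 2.51 to 3.12 and Cspg4 from -1.15 to -0.95. Filters, spread estimates and 1 row per gene cannot change a difference here, since each gene has 1 probe set, and bear only on its p-value. Centring lowers every array A difference by the same 0.17, too little to reverse any of these. The direction could thus change only with quantile normalization, array weights or the replicate block. Leaving out each array in turn gave -2.78 to -1.96 for Pdgfra (adjusted p at most 0.037), 2.84 to 3.15 for Pdgfa (at most 1.2e-04) and -1.11 to -0.71 for Cspg4 (adjusted p = 0.015 to 0.064, limma), the last losing its call without A2B5+ replicate 3 or O4+ replicate 3. Over the same ranges the exact permutation p was 0.029 to 0.086 for Pdgfra, under 0.05 only without A2B5+ replicate 5, and 0.029 to 0.057 for Cspg4, under 0.05 only without A2B5+ replicate 5 or O4+ replicate 2; for Pdgfa it was 0.018 to 0.029. The Pdgfra minus Cspg4 change ranged from -1.85 to -0.94 (exact permutation p = 0.036 to 0.21), passing only without O4+ replicate 3. With 8 arrays there are fewer splits, which raises the smallest p, and the values of Pdgfa are these smallest p. With an A2B5+ array left out, 0.029 is the smallest p and 0.057 the next, so only the most extreme split can pass. The cause of the other losses was not tested.

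On array A 6188 probe sets were called, and from 4426 (quantile normalization) to 9138 (no filter) under alternatives; on array B 2644, and from 2196 to 3583. The share of array A calls that were higher was 68.8%, 51.0% after centring, 48.1% after quantile normalization and 78.0% with no filter. Same-numbered samples were not treated as paired, since the labels give no shared litter and not every pair's deviations correlated: r was 0.02, 0.31, 0.27 and 0.17 for replicates 1 to 4 on array A, and 0.24, -0.13, 0.07 and -0.20 on array B. On array A the A2B5+ replicates 2, 3 and 4 correlated best with the O4+ array of their own number and replicate 1 with O4+ replicate 3; on array B only replicate 1 correlated best with its own number. Whether they share a litter was not settled. With the replicate block 6232 and 2196 probe sets were called on arrays A and B, and the differences were -2.78, 3.12 and -1.09 for Pdgfra, Pdgfa and Cspg4. A2B5+ replicate 5 has no O4+ array of its number, so these are the same differences as without that array. The calls in the NG2 list, 11, became 7 after centring, a setting added after seeing the data.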

Other observations

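With the population means removed, so that only the spread among replicates counts, the genes whose array A values were most like Pdgfra over the 9 arrays were Tmem121 (r = 0.97), Tspyl4 (0.97), Tbpl1 (0.96), the adhesion molecule Alcam (0.96) and Maged1 (0.96). Tmem121 and Alcam were higher in O4+ cells (1.64 and 0.81, limma adjusted p = 0.0028 and 0.029), the opposite of Pdgfra. For Cspg4 they were Ptprn2 (0.94), Ddah2 (0.93), Slc25a42 (0.93), Vdac3 (0.93) and the calcium sensor Ncs1 (0.92), and for Pdgfa they were Pdzd11 (0.97), Capn6 (0.96), Rasgef1b (0.96) and the secreted Wnt-binding proteins Sfrp2 (0.95) and Frzb (0.95). Ddah2 and Rasgef1b were also among the 5 most like Cspg4 and Pdgfa with the means left in. In O4+ cells Sfrp2 fell by 2.91 on the log2 scale and Frzb rose by 2.08 (limma adjusted p = 0.00135 and 0.00119), although both followed Pdgfa among replicates. Each gene was among the 5 highest of 10604 candidates over 9 arrays, and no test was made.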
